A study of Mus musculus with 10 samples.

Results

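The genes described here encode the proteins of the cytosolic ribosome. They were chosen by symbol: Rpl or Rps followed by a number and at most 1 letter, together with Rplp0, Rplp1, Rplp2 and Rpsa, without pseudogenes, l-suffix paralogs and the Rps6k kinases. The choice used gene names and no measured value. It took 134 of the 56605 non-control probes on the array, which stood for 76 of the 22008 genes tested, 46 of the large and 30 of the small ribosomal subunit. Every one of these probes and genes passed the filter on dim signals, and no spot of theirs was saturated.

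RNA came from colonies of BCR-ABL+ mouse bone marrow cells, hybridised to 10 2-colour arrays of 1 design on 3 slides. The first mutant genotype, Cdk6-K43M (4 samples), carries a form of the cell cycle kinase CDK6 that lacks kinase activity, and the second, Cdk6-/- (4 samples), lacks the protein. Both were set against Cdk6+/+ wild type, which was hybridised on every array as 1 pool of 4 RNAs. In all 3 genotypes the marrow of donors aged 6 weeks had been transduced with retrovirus, harvested after 24 h and kept for 10 days in methylcellulose free of growth factors, with no further treatment. Each single sample was labelled with Cy5 and the wild-type pool with Cy3. Each genotype also had 1 array with the dyes swapped, on which the pool of its 4 RNAs carried Cy3 and the wild-type pool Cy5. The samples are called biological replicates, but nothing states how many animals, cultures or colonies stand behind 1 sample, so a p-value here measures the spread between these samples, which may be partly technical. The transforming oncogene is the same in all 3 genotypes, and no untransformed cells were measured.

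Ribosomal proteins are made in the cytosol, carried into the nucleolus and assembled there with ribosomal RNA into a small subunit, which decodes the messenger, and a large subunit, which joins amino acids. They are needed in near-equal amounts, so their messengers are among the most abundant of growing cells. In vertebrates most of these messengers begin with a C and a run of pyrimidines, the 5′ terminal oligopyrimidine (TOP) tract, through which the kinase mTOR and the protein LARP1 set their translation and stability. In blood formation the family is known for 2 things in particular: loss of 1 copy of several members causes Diamond-Blackfan anaemia, and free members released by failed assembly bind MDM2 and so raise p53.

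RefSeq's promoter table for GRCm38.p6 held 56 of the 76 genes. This is 73.7%, under the 80% needed to describe the whole family by its start sites, so a comparison of shares over the family is void. Among those 56 genes, 13 had a C at the annotated start followed by at least 4 further C or T, a pattern searched on the gene's own strand at that 1 position only. Among all 27025 genes listed there, 3.01% had it. The stretch from 36 bases before the annotated start to its 14th base is shown for 5 members, 5′ to 3′ on the gene's strand, with the tract in capitals. Rpl13, Rpl38 and Rps27 are shown because they passed the threshold in Cdk6-K43M colonies, Rps18 because its ratio turned most with the dye, and Rps6 because it is the protein that S6 kinase phosphorylates. 
Rpl13, chr8:123102314-123102363, plus strand: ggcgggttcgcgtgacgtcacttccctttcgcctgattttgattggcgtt
Rpl38, chr11:114668544-114668593, plus strand: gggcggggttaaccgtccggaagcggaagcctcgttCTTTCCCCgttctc
Rps27, chr3:90213635-90213684, minus strand: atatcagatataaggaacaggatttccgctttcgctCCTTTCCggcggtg
Rps18, chr17:33955652-33955701, minus strand: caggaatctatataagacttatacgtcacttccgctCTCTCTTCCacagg
Rps6, chr4:86857354-86857403, minus strand: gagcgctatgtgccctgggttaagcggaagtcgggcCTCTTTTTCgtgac
The tracts of Rpl38, Rps27, Rps18 and Rps6 are 8, 7, 9 and 9 bases long. Rpl13 has none at its annotated start, which says only that these letters do not stand at that position.

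The cells were of the B lineage by their markers: all 8 listed genes, among them Cd79a, Cd79b, Ebf1, Pax5, Vpreb1, Igll1 and Rag1, were well above background in every sample of both mutants and on all 10 wild-type channels. Of these 8 genes, 2 were lower and 2 higher in Cdk6-K43M, and 0 were lower and 1 higher in Cdk6-/- colonies. Granulocyte and monocyte markers moved with genotype: 5 of 8 were lower in Cdk6-K43M and 5 of 8 in Cdk6-/- colonies. Of all genes tested, 10.3% were lower in Cdk6-K43M and 3.85% in Cdk6-/-. The summed signal of that list ranged from 1677 to 9545 in Cdk6-K43M samples, from 1332 to 2575 in Cdk6-/- samples, and from 4534 to 5546 on the wild-type channels. Ngp, Camp and Mpo were not well above background in any mutant sample. Of the 8 markers of that list, 4 were well above background in every Cdk6-K43M sample and 3 in every Cdk6-/- sample. What part these differences in markers have in the ribosomal protein results was not tested. Of 5 T and NK cell genes, Cd3e and Cd4 were well above background in every sample and on all 10 wild-type channels, and Cd3g, Cd8a and Ncr1 in none. The summed signal of that list ranged from 1447 to 2158 in Cdk6-K43M samples, from 1363 to 2177 in Cdk6-/- samples, and from 1305 to 1922 on the wild-type channels. Of the erythroid genes, Hba-a1 was well above background in every sample and wild-type channel, Klf1 in 1 sample of each mutant and on 5 of 10 wild-type channels, and Hbb-b1 and Gata1 in none. On the single-sample arrays the mutant channel had 46.9% to 49.9% of all probes well above background.

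The largest pattern in the ribosomal protein genes followed the dye and not the genotype. A value is given throughout as the log2 ratio of the mutant over the wild-type pool, so that 0 means equal signal and 1 a doubling. On the 4 single-sample arrays of Cdk6-K43M the median over the 76 genes was 0.24, 0.22, 0.17 and 0.17, and on those of Cdk6-/- it was 0.17, 0.20, 0.20 and 0.19. On the swapped arrays the same medians were -0.21 for the Cdk6-K43M pool and -0.18 for the Cdk6-/- pool. Read as Cy5 over Cy3, the family therefore stood above 0 on all 10 arrays, whichever RNA carried Cy5, while the median over all genes tested lay between -0.02 and 0.01 as mutant over wild type. In Cdk6-K43M 69 of the 76 genes had a mean above 0 over the single samples and 59 were below 0 on the swapped pool, and in Cdk6-/- the counts were also 69 and 59.

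**Figure D1:**
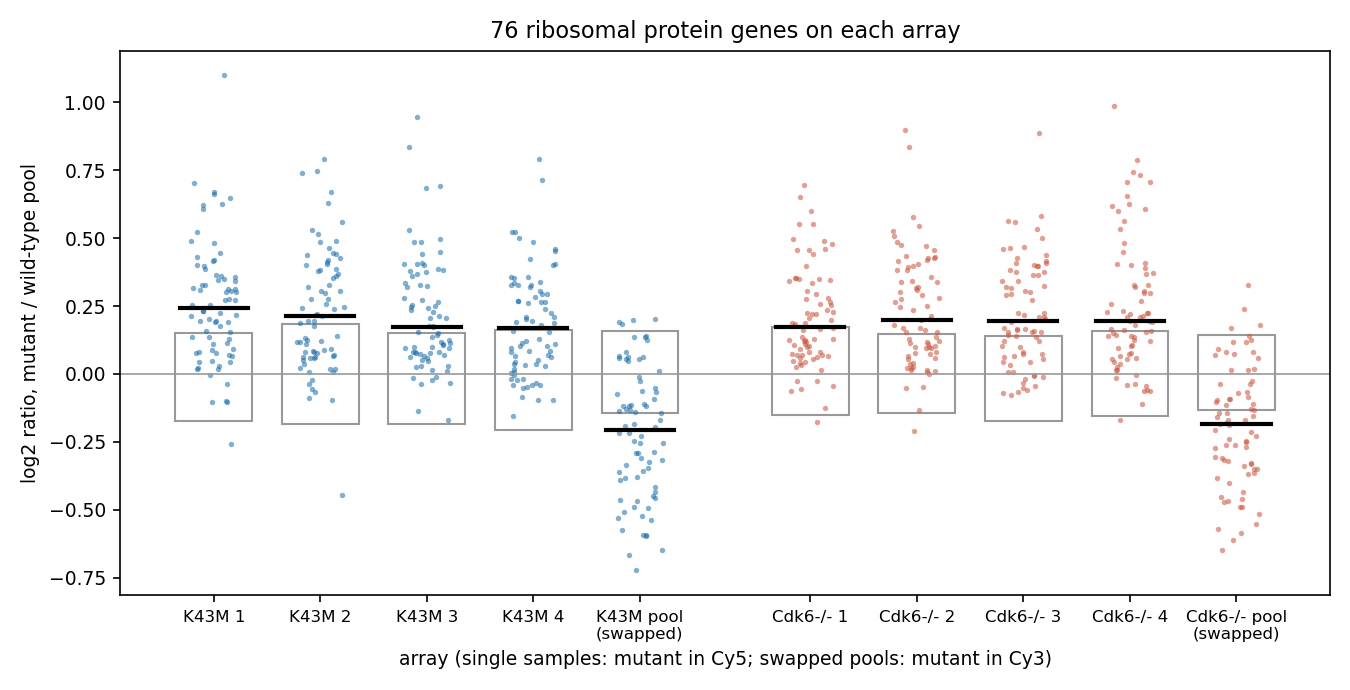
Log2 ratio of mutant over wild-type pool (vertical axis) for the 76 ribosomal protein genes on each of the 10 arrays, with the 5 Cdk6-K43M arrays on the left and the 5 Cdk6-/- arrays on the right. Each point is 1 gene, the black bar is the median over the 76, and the grey box spans the quartiles of all 22008 genes tested. The medians lie between 0.17 and 0.24 on the 8 single-sample arrays and at -0.21 and -0.18 on the swapped pools.

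The fit carried a term for this dye effect, which was estimated from all 10 arrays with limma and tested with Benjamini-Hochberg adjustment over all genes. Cy5 exceeded Cy3 for 40 of the 76 genes and fell short of it for 1, Rps21, a protein of the small subunit. This is 53.9% of the family, against 6.51% of all genes tested, of which 3.21% were higher and 3.29% lower in Cy5. By brightness the median of the family lay at the 99.3rd percentile, with 75 of the 76 genes in the top 5%. No genes of like brightness were set beside the family, and whether they share this dye effect was not tested. The median dye term was 0.18 (log2) in the family and -0.01 over all genes. Its size depended on the signals. With Agilent's processed signals the family median was 0.04, and 10 members were higher and 2 lower in Cy5, where 3.04% of all genes passed. With arrays centred on their median in place of loess the family median was 1.27 and all 76 were higher. There the median over all genes was 0.36 and 70.1% of them passed. For 43 of the 76, Cy5 was above Cy3 on every one of the 10 arrays, against 2.97% of all genes, and for 0 of the 76 was Cy3 above Cy5 on all 10, against 2.75%. Because each single sample was labelled with Cy5, a fit to those 8 arrays alone, without the dye term, called 41 of the 76 higher and 0 lower in Cdk6-K43M, against 11.6% and 13.4% of all genes. In Cdk6-/- that fit called 38 higher and 0 lower, against 6.7% and 8.26% of all genes.

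Rps18, a small subunit protein often used as a reference in PCR, had the highest dye term, 0.66 (adjusted p = 0.000197). Its ratios were 0.70, 0.79, 0.94 and 0.79 in the Cdk6-K43M samples and -0.53 in their swapped pool, and 0.55, 0.84, 0.88 and 0.99 in the Cdk6-/- samples and -0.49 in theirs. All 8 single samples were thus high and both swapped pools low, with no overlap. Rpl10, a large subunit protein mutated in human T cell leukaemia, had a dye term of 0.62, and its ratios in the Cdk6-K43M samples were 0.67, 0.63, 0.41 and 0.52 with -0.72 in the swapped pool. In Cdk6-/- the Rpl10 ratios were 0.69, 0.54, 0.40 and 0.79, with -0.61 in the swapped pool. Rps10, mutated in some families with Diamond-Blackfan anaemia, and Rpl11, which binds 5S RNA, had dye terms of 0.62 and 0.52. At the other end stood Rps21 at -0.18 (adjusted p = 0.019) and Rpl23a at -0.09, which did not pass. Rpl19 and Rpl22 had dye terms of 0.11 and 0.03, and neither passed the threshold.

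**Figure D2:**
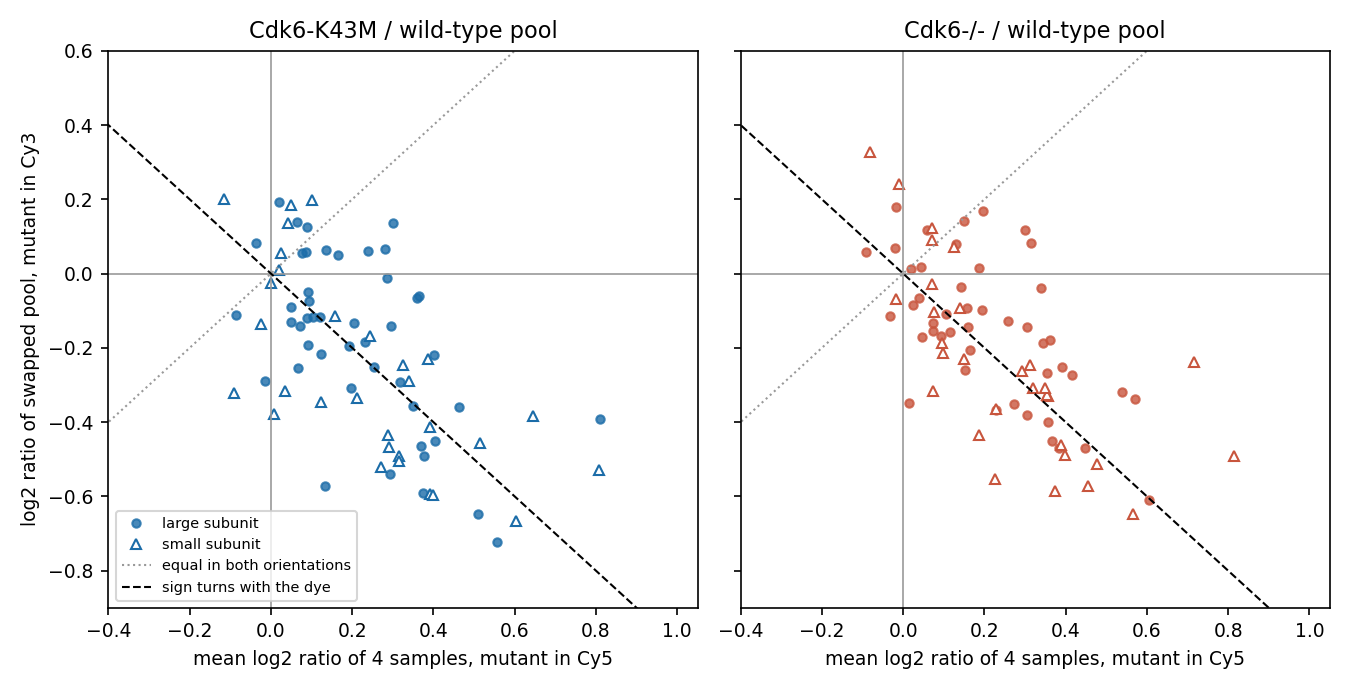
Mean log2 ratio over the 4 single samples, with the mutant in Cy5 (horizontal axis), against the log2 ratio on the swapped pool, with the mutant in Cy3 (vertical axis), for each of the 76 genes in Cdk6-K43M (left) and Cdk6-/- (right). Filled circles are large subunit genes and open triangles small subunit genes. Points near the dashed line change sign with the dye, and points near the dotted line have the same value in both orientations. In each panel 69 genes lie right of 0 and 59 lie below 0.

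The dye term differed between members and between probes of 1 gene. Its median was 0.28 in the 30 small subunit genes and 0.14 in the 46 large subunit genes, with 20 of 30 and 20 of 46 higher in Cy5. It was 0.13 in the 35 genes whose probe was printed as 10 spots and 0.31 in the 41 genes with a single spot. Where a gene had several probes, which was so for 43 members, the brightest had a higher dye term than the mean of the others in 38, and in 23 the probes of the same gene had dye terms of both signs. The 3 probes of Rps18 had dye terms of 0.66, -0.13 and 0.07, and those of Rpl13 had 0.20, -0.25 and -0.08. All probes of a gene were read on the same arrays, so these differences lie between probes. For a few genes, such as Rps24, the probes are annotated to different transcripts.

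Against the wild-type pool, Cdk6-K43M colonies showed small changes in a few ribosomal protein genes with loess and a fitted dye term, and the median of the family lay near 0. This depended on the normalization. With arrays centred on their median in place of loess, the dye still fitted, 68 of the 76 were higher and 0 lower. There 28.9% of all genes passed, higher or lower, and the family median was 0.35 against 0.11 over all genes. Rpl32, Rpl17 and Rpl13, all of the large subunit, rose by 0.26, 0.22 and 0.15 (log2). Rpl38 of the large subunit and Rps27 of the small one fell by 0.22 and 0.18, both of which turned positive with that centring. In all 6 of 76 passed, 3 higher and 3 lower. With the slide as a block Rpl17 and Rpl38 passed, and Rpl32, Rpl13 and Rps27 did not. The 6 are 7.89% of the family, against 20.1% of all genes tested that passed the same threshold (adjusted p under 0.05, 9.79% higher and 10.3% lower). At an unadjusted p under 0.05 in limma the shares were near each other, with 24 of the 76, or 31.6%, against 33.4% of all genes. The median over the 76 was 0.01, and over all genes it was -0.01. In bulk RNA, fewer cells that express a gene and less of its RNA per cell cannot be told apart.

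Rpl17 lies beside the tunnel through which the new protein leaves the ribosome. Its ratios were 0.37, 0.38, 0.27 and 0.18 in the Cdk6-K43M samples and 0.14 in the swapped pool (fitted change 0.22, SE 0.06, adjusted p = 0.0225). In Cdk6-/- samples they were 0.35, 0.43, 0.22 and 0.19, and 0.12 in the swapped pool (fitted change 0.21, SE 0.06, adjusted p = 0.0491). All 5 arrays of each genotype were above 0 for this gene, in both dye orientations. The gene lies on chromosome 18 and has 3 probes, each printed as 10 spots, and their fitted changes were 0.22, 0.18 and 0.19 in Cdk6-K43M and 0.21, 0.19 and 0.23 in Cdk6-/-. Both comparisons share the wild-type pool, so a high or low level of Rpl17 in that 1 pool would enter both.

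The other calls rested on the fitted dye term. Rpl32 had ratios of 1.10, 0.75, 0.68 and 0.71 in the Cdk6-K43M samples and -0.39 in the swapped pool, with a fitted change of 0.26 (SE 0.08, adjusted p = 0.0432) beside a dye term of 0.51. In Cdk6-/- its ratios were 0.46, 0.58, 0.46 and 0.66, with -0.32 in the swapped pool and a fitted change of 0.06 (adjusted p = 0.692). All 4 Cdk6-K43M samples lay above all 4 Cdk6-/- samples for Rpl32, which was also so for Rps23 and Rpl4, 3 of the 76 genes against 4.05% of all genes. The reverse held for Rps9, 1 of 76 against 4.11%. Rpl13 had ratios of 0.33, 0.42, 0.36 and 0.33 in the Cdk6-K43M samples and -0.07 in the swapped pool (fitted change 0.15, SE 0.04, adjusted p = 0.0364). The ratios of Rpl13 in Cdk6-/- were 0.35, 0.25, 0.20 and 0.22, with -0.13 in the swapped pool, and its fitted change was 0.06 (adjusted p = 0.447). Both genes were thus above the wild-type pool in every single sample and below it in every swapped pool.

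Rpl38 is known in mice for a part in the translation of homeobox messengers. It had positive ratios in all 4 Cdk6-K43M samples, 0.11, 0.20, 0.15 and 0.06, and -0.57 in the swapped pool. With a dye term of 0.35, the fitted change was -0.22 (SE 0.05, adjusted p = 0.0189), and in Cdk6-/- it was -0.04 (adjusted p = 0.684) from 0.12, 0.40, 0.32 and 0.37 and a swapped pool at -0.38. The fall of Rpl38 in Cdk6-K43M colonies is therefore a fall relative to the dye effect, and no single sample was below the pool. Rps27, a small protein with a zinc finger, had 0.07, 0.02, 0.10 and -0.16 in the Cdk6-K43M samples and -0.38 in the swapped pool (fitted change -0.18, adjusted p = 0.0401), and 0.08, 0.10, 0.27 and 0.15 in the Cdk6-/- samples with -0.23 in theirs (fitted change -0.04, adjusted p = 0.691). The second probe of Rps27 had a fitted change of -0.05 in Cdk6-K43M and did not pass the threshold in the fit over all kept probes.

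Of the 6 calls in Cdk6-K43M, Rpl38 alone passed in every fit that left out 1 sample, while Rpl17 was lost without Cdk6-K43M sample 1. Both swapped pools stayed in each of these fits. They therefore cannot show how far a call rests on a swapped array, such as the one at -0.57 for Rpl38. The number of genes called higher ranged from 0 to 3 and of those called lower from 1 to 3 in these fits. No call was left when the standard errors were widened to allow for the spread of a pool of 4, where 5.77% of all genes passed the same adjusted threshold. At an unadjusted p under 0.05 in limma there were 6 members, a count that was not set beside all genes.

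In Cdk6-/- colonies 1 gene, Rpl17, rose against the wild-type pool (values above) and 0 fell. With an adjusted p of 0.0491, Rpl17 passed narrowly: of the alternatives run on all samples, it passed with loess fitted without ribosomal protein probes and on the single-sample arrays without a dye term, and did not pass in any other. It did not pass in 6 of the 8 fits that left out 1 sample. This is 1.32% of the family, against 7.24% of all genes tested, of which 3.39% were higher and 3.85% lower. In limma 12 of the 76 had an unadjusted p under 0.05, or 15.8%, against 24.8% of all genes. The median change over the family was 0.00, as over all genes. Rps14, a small subunit protein known for its loss in the human 5q- syndrome, had the highest fitted change, 0.23 (adjusted p = 0.051), from 0.65, 0.90, 0.58 and 0.73 in the Cdk6-/- samples and -0.24 in the swapped pool. In Cdk6-K43M the ratios of Rps14 were 0.63, 0.74, 0.69 and 0.52, with -0.38 in the swapped pool and a fitted change of 0.14 (adjusted p = 0.129). Its dye term of 0.50 exceeded both fitted changes. Rpl13a, a large subunit protein that in human cells also silences inflammatory messengers, had 0.21, 0.34, 0.41 and 0.30 in the Cdk6-/- samples and 0.08 in the swapped pool, with a fitted change of 0.20 (adjusted p = 0.0708). Among the lowest values in Cdk6-/- were -0.15 for Rpsa and -0.13 for Rpl4, and neither passed (adjusted p = 0.174 and 0.105).

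**Figure D3:**
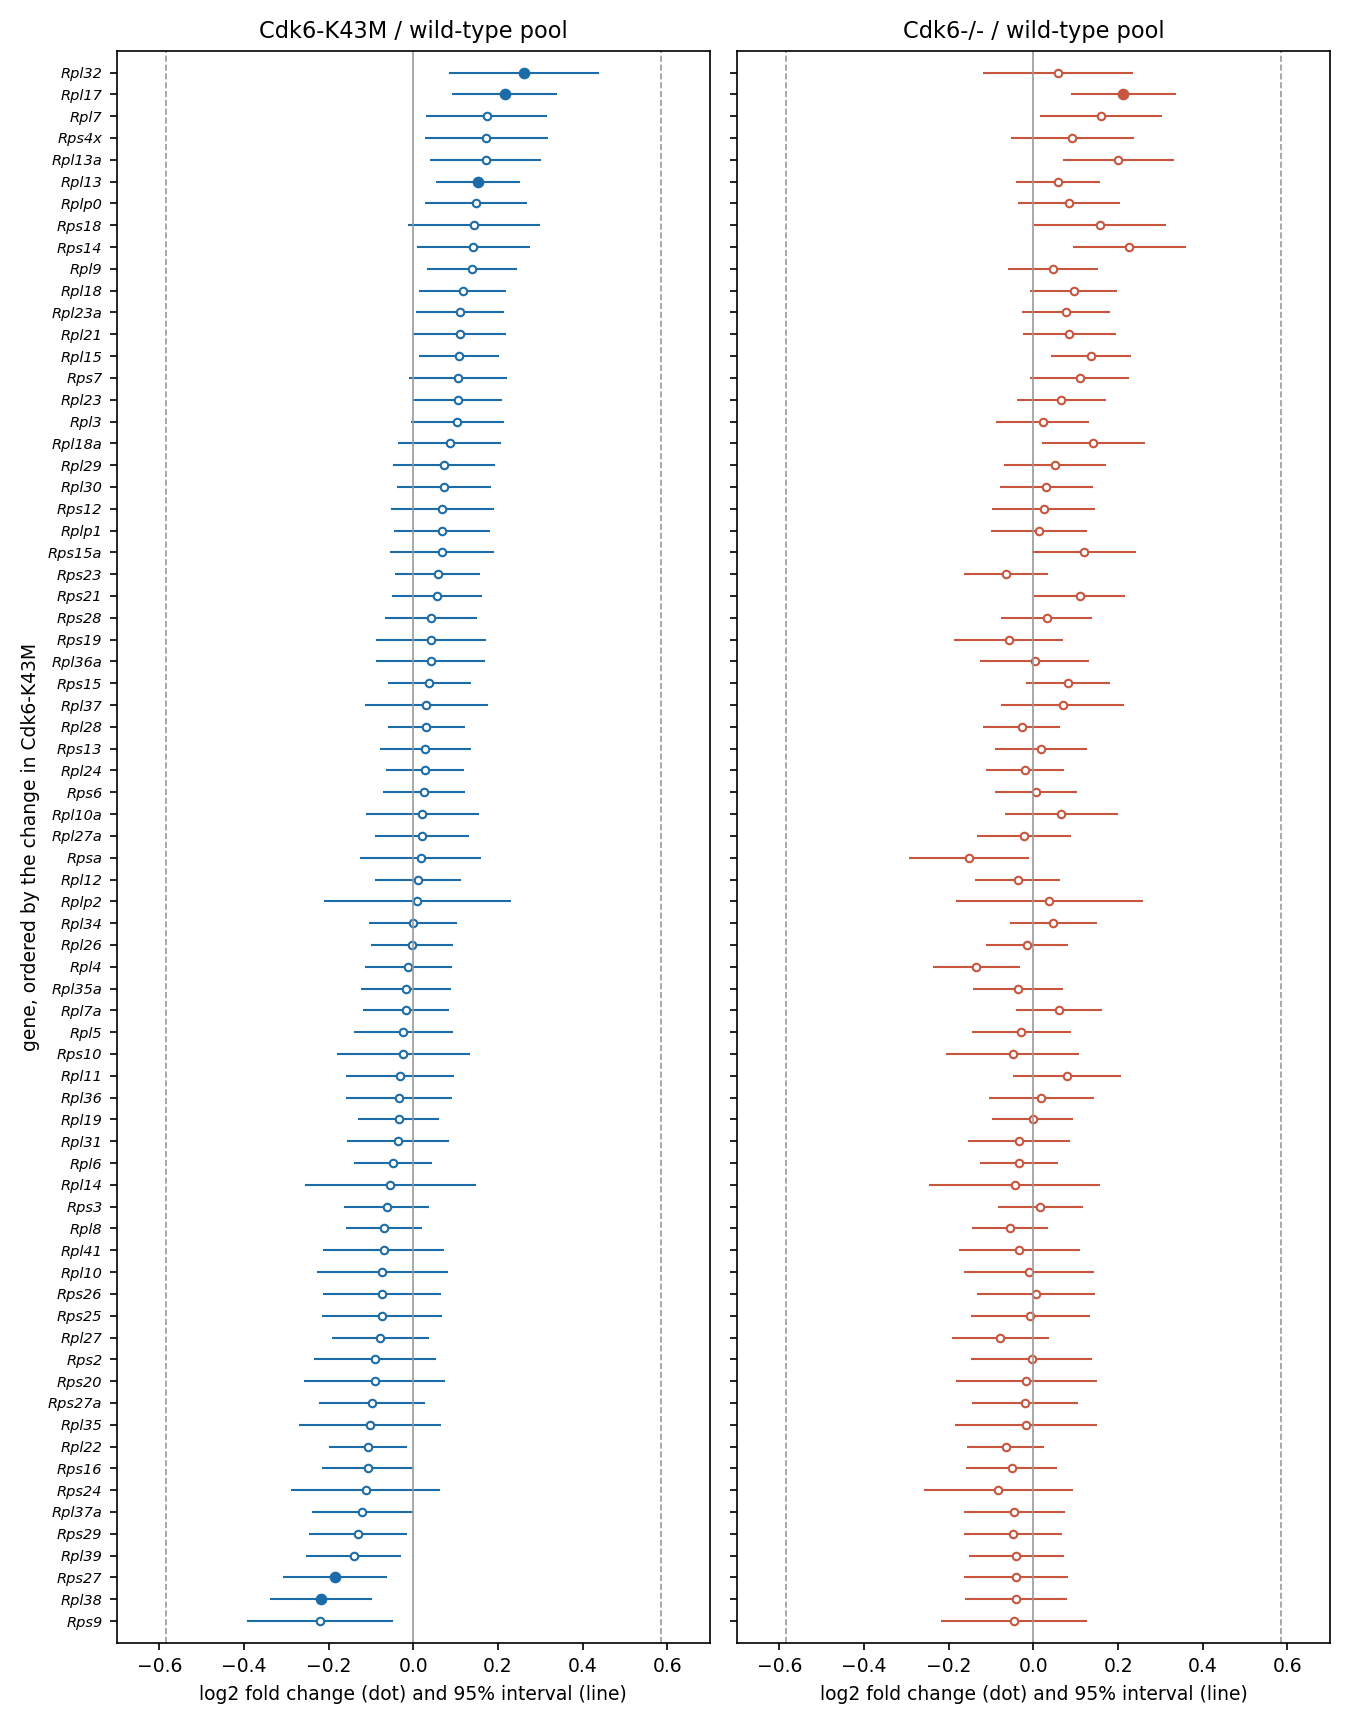
Fitted log2 change against the wild-type pool (horizontal axis; points) with its 95% interval (lines) for 72 of the 76 genes, in Cdk6-K43M (left) and Cdk6-/- (right), ordered by the value in Cdk6-K43M. Filled points passed an adjusted p of 0.05, which 5 of the genes shown did in Cdk6-K43M and 1 in Cdk6-/-. Dashed lines mark a 1.5-fold change either way, and every interval shown lies inside them.

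With loess and 1 probe a gene, the 95% intervals of all 76 genes lay inside a 1.5-fold change in either direction, in Cdk6-K43M, in Cdk6-/- and between the mutants. With median centring the intervals of 16 genes in Cdk6-K43M and of 7 between the mutants reached past it, and with the mean of all kept probes so did that of Rps2 in both, as far as 0.90 (log2) in size in Cdk6-K43M. For Rpl37, whose probe lay at the 6.25th percentile of brightness and was well above background on 8 of 10 mutant and 5 of 10 wild-type channels, the interval bounds the ratio of dim signals and not the fold change of its RNA. Those of 63 genes in Cdk6-K43M and 68 in Cdk6-/- lay within 1.2-fold of wild type, as did 54 for the difference between the mutants. The farthest bound was 0.44 (log2) for Rpl32 in Cdk6-K43M, 0.36 for Rps14 in Cdk6-/- and 0.51 for Rpl32 between the mutants. Against wild type an interval reached 0.12 to either side of the fitted change at the median of the family, and 0.16 at the median of all genes. Widening the standard errors for the spread of the pool left all 76 intervals within 1.5-fold and lowered the number within 1.2-fold to 45 in Cdk6-K43M and 56 in Cdk6-/-.

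Between Cdk6-K43M and Cdk6-/- colonies, compared on the 8 single-sample arrays because there the pool and the dye drop out, 0 of 76 genes passed the threshold in limma, against 0.513% of all genes tested. Rpl32, Rps23 and Rpsa, at 0.27, 0.15 and 0.21, had an unadjusted p under 0.05 (adjusted p = 0.306, 0.355 and 0.355). Rps23 forms part of the decoding centre, and its ratios were 0.23, 0.30, 0.18 and 0.27 in Cdk6-K43M samples and 0.05, 0.10, 0.07 and 0.16 in Cdk6-/- samples, which do not overlap. Rpsa, which also serves as a laminin receptor at the cell surface, had 0.49, 0.22, 0.38 and 0.49 in Cdk6-K43M samples and 0.12, 0.29, 0.06 and 0.27 in Cdk6-/- samples, which do. At the low end stood Rps9 at -0.19, Rpl38 at -0.17 and Rps27 at -0.14, with adjusted p of 0.489, 0.377 and 0.469. The median difference over the family was -0.01, as over all genes. Within the slides the family's median difference was 0.05 on slide 1, -0.01 on slide 2 and -0.01 on slide 3, with 1, 2 and 1 samples of each genotype.

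By role, Rpl5, Rpl11, Rpl23, Rpl26 and Rps7, the members listed for binding MDM2, had fitted changes of at most 0.11 in size. Rpl5 and Rpl11, which join 5S RNA in the particle that holds MDM2, had fitted changes of -0.02 and -0.03 in Cdk6-K43M and -0.03 and 0.08 in Cdk6-/-. Rpl23, Rpl26 and Rps7 had 0.11, 0.00 and 0.11 in Cdk6-K43M and 0.07, -0.02 and 0.11 in Cdk6-/-, and none passed. Of the genes mutated in Diamond-Blackfan anaemia, Rps19 had 0.04 in Cdk6-K43M and -0.06 in Cdk6-/-, Rps24 had -0.11 in Cdk6-K43M and -0.08 in Cdk6-/-, and Rpl35a had -0.02 in Cdk6-K43M and -0.04 in Cdk6-/-. Rpl22, Rpl10 and Rps15, mutated in human lymphoid leukaemias, had -0.11, -0.07 and 0.04 in Cdk6-K43M and -0.07, -0.01 and 0.08 in Cdk6-/-. Rpl22 was below the wild-type pool on all 5 Cdk6-K43M arrays, between -0.14 and -0.05, with an adjusted p of 0.0976. None of these genes passed the threshold in either mutant on its brightest probe, while the second probe of Rps19 did in Cdk6-K43M, at 0.19 (adjusted p = 0.0345).

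The stalk, which recruits elongation factors to the large subunit, is built of Rplp0, Rplp1 and Rplp2. Their fitted changes were 0.15, 0.07 and 0.01 in Cdk6-K43M and 0.08, 0.01 and 0.04 in Cdk6-/-, and none passed. Rplp2 had the widest spread among Cdk6-/- samples, from 0.08 to 0.62 with an SD of 0.26, and its interval reached 0.26 there. Rps6, the substrate of S6 kinase, had 0.03 in Cdk6-K43M and 0.01 in Cdk6-/-. Rps27a, made as a fusion to ubiquitin, had -0.10 in Cdk6-K43M and -0.02 in Cdk6-/-. Rpl39, which lines the exit tunnel, had -0.14 in Cdk6-K43M and -0.04 in Cdk6-/-. Of the genes used as references in PCR, Rpl19 had -0.03 in Cdk6-K43M and 0.00 in Cdk6-/-, Rps18 had 0.14 in Cdk6-K43M and 0.16 in Cdk6-/-, and Rpl13a had 0.17 in Cdk6-K43M and 0.20 in Cdk6-/-. None of these values passed the threshold. Rpl19 thus lay nearest to 0 of these 3. The dye term was 0.11 for both Rpl19 and Rpl13a and 0.66 for the brightest probe of Rps18, whose other probes had -0.13 and 0.07.

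In the 43 members with several probes, the median range between probes was 0.07 in Cdk6-K43M and 0.06 in Cdk6-/-, which is about the median size of a change over the 76 genes, 0.07 in Cdk6-K43M and 0.05 in Cdk6-/-. In 18 of the 43 the probes had changes of both signs, in each mutant. Tested probe by probe, 15 of the 134 passed in Cdk6-K43M, 11 higher and 4 lower, or 11.2%, against 20.2% of all probes, and 0 passed in Cdk6-/-, against 6.8%. Rps2, whose protein sits near the messenger entry channel of the small subunit, had the widest range in Cdk6-K43M, 1.10. Its brightest probe, printed as 10 spots, read -0.26, 0.01, 0.08 and 0.07 in the Cdk6-K43M samples and -0.14 in the swapped pool. The second probe, a single spot, read -1.94, -0.75, -0.68 and -1.81 in these samples and -1.02 in the swapped pool, but -0.17, -0.05, -0.24 and 0.00 in Cdk6-/- samples and -0.07 in their pool. Its fitted change was -1.19 in Cdk6-K43M (adjusted p = 0.0025 over all kept probes, n = 4 samples) and -0.06 in Cdk6-/-. Both probes are annotated to the same transcript, and which of them reads the gene's level was not tested. Rps18 also differed by probe: its other probes, with 10 spots each, passed in Cdk6-K43M at 0.26 and 0.23 (adjusted p = 0.0122 and 0.0102), while the brightest did not at 0.14. In Cdk6-/- these 2 probes had 0.22 and 0.18 (adjusted p = 0.0577 and 0.0579). The second probe of Rpl7 likewise passed in Cdk6-K43M at 0.23 (adjusted p = 0.0091), where the first had 0.17. Second probes also passed in Cdk6-K43M for Rpl9 at 0.21, Rps19 at 0.19, Rpl13 at 0.19, Rpl18 at 0.15 and Rps10 at 0.14, and for Rpl7a at -0.20. Of these 6 genes Rpl13 alone passed on its brightest probe.

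**Figure D4:**
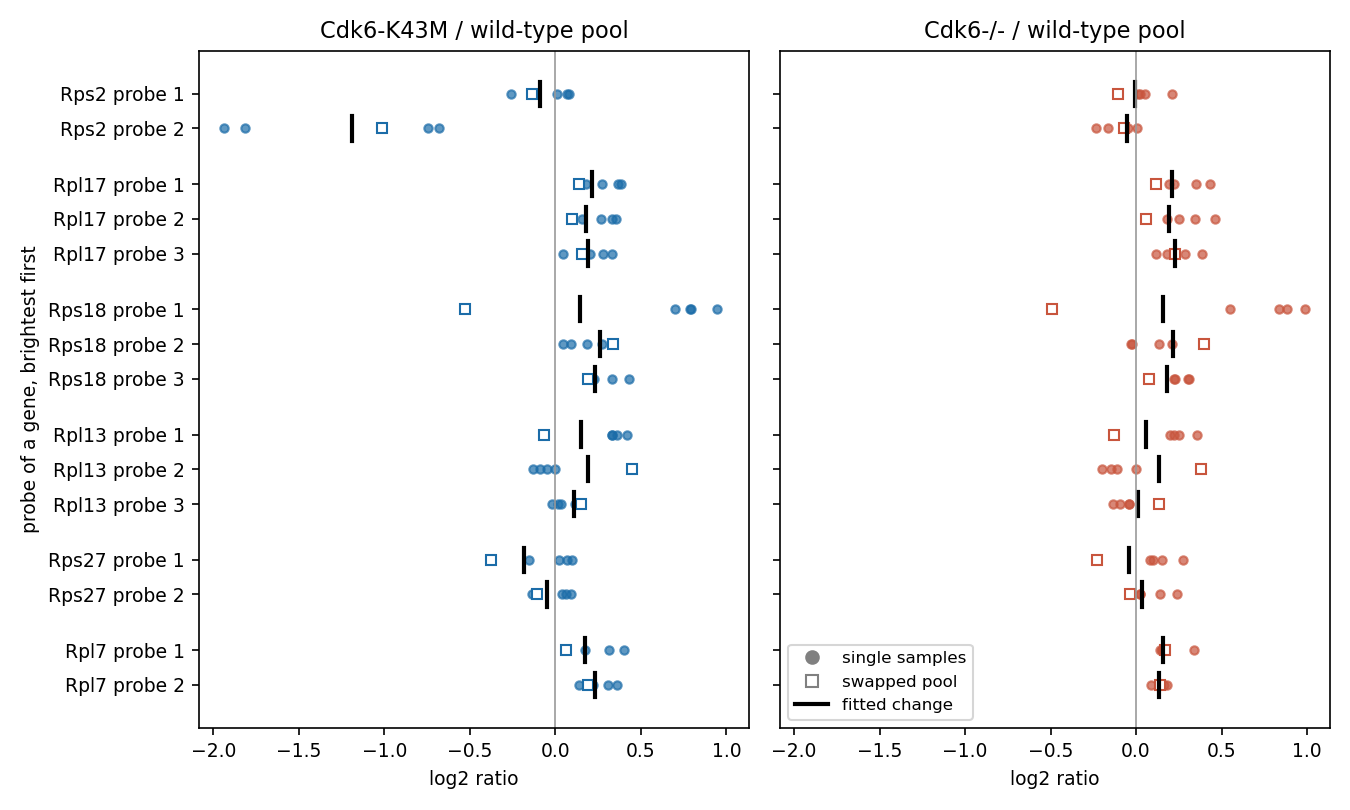
Log2 ratio of mutant over wild-type pool (horizontal axis) on each probe of 6 genes, in Cdk6-K43M (left) and Cdk6-/- (right). Circles are the 4 single samples, open squares the swapped pool, and vertical bars the fitted change, with a gene's brightest probe at the top of its group. The second probe of Rps2 lies between -1.94 and -0.68 in Cdk6-K43M and near 0 in Cdk6-/-. The 3 probes of Rpl17 give fitted changes from 0.18 to 0.23.

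The array carried 58 of these probes in 10 copies each, so the spread of spots could be given beside the spread of samples. The median SD over the 4 samples was 0.08 in Cdk6-K43M and 0.05 in Cdk6-/- for these probes, and the median SD among the 10 spots of 1 array was 0.05, which makes the standard error of their mean 0.02. Samples differ in array and labelling as well as in RNA, and these parts were not separated. The median SD over samples was 0.09 in Cdk6-K43M and 0.08 in Cdk6-/- for the 76 genes, against 0.15 in Cdk6-K43M and 0.14 in Cdk6-/- for all genes tested. Of the 76, 66 in Cdk6-K43M and 67 in Cdk6-/- lay below that median of all genes. The family is brighter than most genes, and no genes of like brightness were set beside it here. Rps9, whose Cdk6-K43M samples read 0.02, -0.45, 0.02 and 0.04, had the widest spread there (SD 0.24). Rpl26 had the narrowest in that genotype (SD 0.01) and Rpl8 in Cdk6-/- (SD 0.01).

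Genes near the family but outside the naming rule were read beside it. Rps27l, a paralog of Rps27 known in human cells as a p53 target, fell in both mutants, by 0.28 in Cdk6-K43M (adjusted p = 0.0392) and by 0.44 in Cdk6-/- (adjusted p = 0.0177). Its ratios were -0.29, -0.44, -0.64 and -0.20 in the Cdk6-K43M samples with -0.16 in the swapped pool, and -0.73, -0.37, -0.65 and -0.38 in the Cdk6-/- samples with -0.35 in theirs. All 10 were below 0. The dye term of Rps27l was -0.10 and did not pass, and its second probe fell by 0.24 (adjusted p = 0.0595) in Cdk6-K43M and by 0.37 (adjusted p = 0.0251) in Cdk6-/-. Of the other paralogs tested, Rpl7l1, Rpl22l1, Rpl36al and Rpl3l, none passed in either mutant. Fau, Rack1 and Rps3a1, further components of the ribosome (Fau as a fusion with a ubiquitin-like protein), lay between -0.02 and 0.01 in Cdk6-K43M and between -0.09 and 0.08 in Cdk6-/-. Of these, Rack1 and Rps3a1 were higher in Cy5 on their brightest probes, with Rack1 at 0.56 and Rps3a1 at 0.17 (adjusted p = 0.0489 in limma). Their other probes differed. In the fit over all kept probes the second probe of Rack1 had a dye term of -0.03 and did not pass. The other probes of Rps3a1 had -0.10, which did not pass, and -0.24, which was lower in Cy5 (adjusted p = 0.00474). The brightest Rps3a1 probe did not pass in that fit (adjusted p = 0.055).

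Other messengers with a TOP tract had a median dye term of -0.03 over 14 genes, with 0 higher in Cy5 and 1, Eif4b, lower at -0.35. In Cdk6-K43M the poly(A)-binding protein Pabpc1 rose by 0.25 (adjusted p = 0.00601), and Hnrnpa1 and Tpt1 fell by 0.28 and 0.17 (adjusted p = 0.00286 and 0.0408), out of 14. Their other probes did not pass there, with -0.05 and -0.16 for Hnrnpa1 and -0.0001 and -0.06 for Tpt1. In Cdk6-/- none of the 14 passed. The 3 called in Cdk6-K43M are 21.4% of the list, near the 20.1% of all genes tested. Proteins of the mitochondrial ribosome, which come from a separate set of genes, passed in 19 of 78 cases in Cdk6-K43M, with 13 higher and 6 lower, and in 2 of 78 in Cdk6-/-. These shares are 24.4%, against 20.1% of all genes tested, in Cdk6-K43M and 2.56%, against 7.24%, in Cdk6-/-. Mrps6 led at 0.67 (adjusted p = 7.97e-05) in Cdk6-K43M and was 0.21 (adjusted p = 0.0463) in Cdk6-/-. The median dye term of these 78 genes was -0.06.

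Among 11 factors that escort ribosomal proteins or finish subunits, Tsr2, known in yeast and human cells as the escort of Rps26, rose by 0.32 in Cdk6-K43M (adjusted p = 0.00403) and by 0.30 in Cdk6-/- (adjusted p = 0.017). Nob1, the nuclease that makes the mature end of small subunit RNA, rose by 0.33 in Cdk6-K43M (adjusted p = 0.0057), where Pdcd2, in human cells an escort of Rps2, fell by 0.25 (adjusted p = 0.00835). The other 8 did not pass in Cdk6-K43M, nor did 10 of the 11 in Cdk6-/-. The share that passed was 27.3% in Cdk6-K43M, against 20.1% of all genes tested, and 9.09% in Cdk6-/-, against 7.24%. Rps26 itself, the client of Tsr2, had fitted changes of -0.07 in Cdk6-K43M and 0.01 in Cdk6-/-. Of 10 genes that control TOP translation, Rptor, the subunit of mTOR complex 1 that binds its substrates, rose by 0.49 in Cdk6-K43M and by 0.61 in Cdk6-/- (adjusted p = 0.00214 and 0.00236). Its ratios were 0.45, 0.38, 0.49 and 0.23 in the Cdk6-K43M samples with 0.60 in the swapped pool, and 0.71, 0.67, 0.43 and 0.28 in the Cdk6-/- samples with 0.68 in theirs. All 10 were above 0. Rps6kb1, an S6 kinase gene, rose by 0.22 in Cdk6-K43M (adjusted p = 0.0338), while its ratios in the single samples lay between -0.11 and 0.19 and the swapped pool at 0.45. Its second probe had -0.03 (adjusted p = 0.781). Of these 10 genes 20% passed in Cdk6-K43M, against 20.1% of all genes tested, and 10% in Cdk6-/-, against 7.24%.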

How the data were processed

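Agilent Feature Extraction, version 11.5.1.1, gave the intensity of spots and local background on array design 074809, per the file headers. The authors deposited log2 values too, called loess normalized in that matrix, which served as an alternative. In 2 of its columns 34 cells each were damaged and taken as missing. RNA was amplified and labelled with the Low Input Quick Amp kit, version 6.7, per the labels' protocols.

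Median intensities were background corrected (normexp, offset 50), loess was fitted within arrays, and spots of a probe were averaged, with limma 3.58.1 and data.table (version 1.17.8) in R 4.3.3. Symbols came from RefSeq (GRCm38.p6) by transcript accession, which matched 58.3% of probes. A filter asked for a signal well above background in 3 of 4 samples of a mutant or in 5 of 10 wild-type channels, and 28177 probes passed. The brightest kept probe stood for a gene, and 9011 of the 22008 genes had no symbol. Linear models (lmFit, eBayes) used all 10 arrays with a dye term against wild type, and the 8 single-sample arrays between the mutants, with Benjamini-Hochberg adjustment over all genes and a threshold of 0.05. The wild-type pool was treated as 1 control with no spread, and RNA in the swapped pools is counted again, so the standard errors may be too small. The fit was tested on simulated data. Precision is limited by how many arrays there are.

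Named genes are the members past the threshold, the 3 highest and 3 lowest of each comparison, members with a fixed role and, of each other list, up to 3 with the smallest p. A few genes that these rules name are not reported here. Genes named for their dye term, spread or probes were chosen after their values were seen. Members and lists were chosen with earlier results of these data known. Alternatives were other signals, normalizations, filters and probe rules, the slide or the replicate number as a block, a wider error for the pool, arrays without the swaps, and leaving out each sample.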

Additional observations from a re-analysis of the deposited data

Results flagged for a closer look

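In 9 genes 1 sample lay far from the other 3 of its genotype (a gap above Dixon's 95% value). Over the 146 groups tested, chance would give about 1 in 20. In Cdk6-K43M, Rpl32 read 1.10 in sample 1 and from 0.68 to 0.75 in the others, and its fitted rise did not pass without that sample. Rpl14 read 0.13 in Cdk6-K43M sample 1 and from 0.44 to 0.48 in the others, and Rps4x read 0.27 in that sample and from 0.03 to 0.07 in the others. Rps9 read -0.45 in Cdk6-K43M sample 2 and from 0.02 to 0.04 in the others, on a probe printed as 10 spots. In Cdk6-K43M sample 3, Rpl35a read 0.15, with 0.01 to 0.02 in the others, and Rps21 read -0.17, with -0.10 in each of the others. Cdk6-/- sample 1 stood apart for 3 genes: Rpl7 read 0.34 there and from 0.14 to 0.15 in the others, Rpl15 read 0.22 and from 0.12 to 0.14, and Rpl31 read 0.17 and from 0.40 to 0.43.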

How the results depend on the processing

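The absence of a call between Cdk6-K43M and Cdk6-/- held in every setting run: 0 of 76 higher and 0 lower (in the fit as reported, 3 members had an unadjusted p under 0.05 in limma, and with median centring 43 did). This includes the replicate block, where the median difference was -0.01 with 0 calls, as without it. Correlations between samples that share a number ran from -0.07 to 0.23 (over 0.1 in 2 of 4 pairs), and between samples of unlike number from -0.25 to 0.20. So few pairs cannot settle whether samples that share a number are paired.

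Against wild type the calls moved. With median centring the median over all genes was 0.11 in Cdk6-K43M. There 68 members were higher and 0 lower with a median of 0.35, where 28.9% of all genes passed. In Cdk6-/- 0 members were higher with a median of 0.078, where 3.64% of all genes passed. Between the mutants that centring gave a family median of 0.24, against 0.07 over all genes. Under it these Cdk6-K43M changes turned sign: Rpl4 0.32, Rpl5 0.29, Rpl10 0.29, Rpl11 0.33, Rpl19 0.31, Rpl22 0.21, Rpl26 0.33, Rpl35a 0.32, Rpl38 0.14, Rpl39 0.22, Rps27 0.17 and Rps27a 0.27. On the 8 single-sample arrays without a dye term, 41 members were higher and 0 lower in Cdk6-K43M (median 0.21) and 38 higher in Cdk6-/- (median 0.19). Changes that turned sign there in Cdk6-K43M included Rpl10 0.56, Rpl11 0.51, Rpl38 0.13, Rps24 0.31, Rps27 0.0077 and Rps27a 0.40, and in Cdk6-/- Rpl10 0.61, Rpl38 0.31, Rps19 0.40, Rps24 0.37 and Rps27a 0.48. That setting leaves the dye effect in the ratios; for median centring the cause was not tested.

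In Cdk6-K43M, 1 member was lower with no background correction, with the deposited table, with loess fitted without ribosomal protein probes and with no filter on dim probes. The same settings, in that order, gave 3, 3, 3 and 2 members higher, where 19.4%, 18.9%, 20% and 8.9% of all genes passed. The mean of all kept probes gave 7 higher and 2 lower, where 19.7% of all genes passed. With the slide as a block 1 was higher (Rpl17) and 1 lower (Rpl38), where 15.3% of all genes passed. In Cdk6-/- that block gave 0 higher, where 3.74% of all genes passed. Errors widened for the pool gave 0 higher and 0 lower in Cdk6-K43M (6 members at an unadjusted p under 0.05), where 5.77% of all genes passed the adjusted threshold. In Cdk6-/- 0 members were higher with no background correction, the deposited table, no filter or the widened errors (4 at an unadjusted p under 0.05), and 2 with loess fitted without ribosomal protein probes. Of all genes 6.5%, 6.42%, 2.98%, 0.591% and 7.23% passed in these settings, in that order. Leaving out each sample, with both swapped pools kept, gave 0 to 3 higher and 1 to 3 lower in Cdk6-K43M and 0 to 2 higher in Cdk6-/-. Of all genes 16.3% to 20.5% passed in Cdk6-K43M and 2.78% to 8.77% in Cdk6-/- in these fits. Without Cdk6-K43M sample 1 the counts were 0 higher and 1 lower (Rpl38); Rpl17 in Cdk6-/- was lost with median centring, with Agilent's processed signals (where Rpl13a passed), with the mean of all kept probes (where Rps18 passed), and without any 1 of Cdk6-K43M samples 1 and 3 and of all 4 Cdk6-/- samples. The dye effect itself depended on the signals. Its median was 0.20 with the deposited table and 0.21 with loess fitted without ribosomal protein probes. With Agilent's processed signals it was 0.04, and 10 members were higher and 2 lower in Cy5, where 3.04% of all genes passed. With median centring it was 1.27 and all 76 were higher, where 70.1% of all genes passed.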
